A study of Mus musculus with 18 samples.

Results

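Within the YAP-S mouse liver tumor model, tumors labelled CCA (cholangiocarcinoma, cancer of the bile duct lineage) were compared with tumors labelled mixed. All tumors of the model carried myr-AKT, an activated form of the kinase AKT, together with YAP S127A, which lacks a serine whose phosphorylation keeps YAP out of the nucleus. The members were chosen by the genotype label and comprise 3 CCA tumors (numbers 3, 4 and 5) and 3 mixed tumors (numbers 2, 7 and 9), that is 6 of the 18 samples of the series. A second model, YAP-SY, with 3 CCA and 3 mixed tumors, carried myr-AKT with YAP S127A/Y357F, which also lacks a tyrosine that Src family kinases phosphorylate. RNA came from tumor nodules. The labels give no strain, age, batch or statement that nodules came from separate animals, so the p-values measure the spread between these tumors, whatever its source. SB1, a single cell line with the genotype label of YAP-S CCA, supplied 3 samples that are used here only to show which genes cultured cells express. How the tumors were typed by histology is not given in the sources used here.

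YAP is a transcriptional coactivator that works through the TEAD DNA-binding factors and is restrained by the Hippo kinases. In the adult liver its activity is high in cholangiocytes, the cells that line the bile ducts, and low in hepatocytes, the metabolic cells of the organ. Cholangiocarcinoma is known for a dense collagen-rich stroma made by fibroblasts, and mixed tumors combine bile duct and hepatocyte features.

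Total counts ran from 32999594 to 84515613 in the CCA tumors and from 30656499 to 60698479 in the mixed tumors, and every pair of the 6 tumors differed by more than sampling noise. Values are given as CPM, counts per 1000000 after scaling by trimmed means (TMM). A median gene differed by 0.128 to 0.156 on the log2 scale between CCA tumors, by 0.147 to 0.175 between mixed tumors and by 0.182 (CCA 3 against mixed 7) to 0.315 (CCA 5 against mixed 2) between the groups. The first principal component of the 6 tumors held 46.1% of the variance and separated the labels, with CCA tumors at -29.4 to -62.1 and mixed tumors at 23.2 to 70.9. Mixed tumor 2 lay farthest from the CCA tumors and mixed tumor 7 nearest. Both labels held much hepatocyte RNA. Alb, serum albumin, took 4.39% to 4.48% of all counts in the CCA tumors and 5.42% to 6.92% in the mixed tumors.

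The number of genes called differed widely between fits. With all 12 tumors of both models in a single fit, 0 of 18318 genes passed an adjusted p of 0.05 (background 0%; edgeR quasi-likelihood test, Benjamini-Hochberg adjustment). The smallest adjusted p was 0.0525, and 3636 genes (19.8%) had an unadjusted p under 0.05, of which 2040 were higher and 1596 lower in CCA. Fitted alone, the 6 YAP-S tumors gave 2393 of 17782 genes (13.5%), 1602 higher in CCA (9.01%) and 791 lower (4.45%). The biological coefficient of variation was 0.2012 among the 6 tumors and 0.2685 among the 12. Of the 2393 genes, 2391 were also tested with 12 tumors, all 2391 in the same direction and 953 with an adjusted p under 0.1. Both fits take the YAP-S fold change from the same 6 tumors, so the shared direction is no independent support. Leaving YAP-SY CCA tumor 6 out of the fit of 12, a choice made after seeing the data, raised its count from 0 to 670. Without the whole YAP-SY CCA group it was 650. With the same 12 tumors, other settings gave 117 (DESeq2's size factors), 137 (upper quartile factors), 269 (a filter at 1 CPM), 570 (no filter), 711 (total counts), 1513 (DESeq2's Wald test) and 3609 genes (limma-voom). What sets the count was not tested.

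Below, "rose", "fell" and "called" refer to an adjusted p under 0.05 with the 6 tumors alone, and none of these genes passed with 12. Single YAP-S tumors mattered for the count of 2393 as well. It was 1267, 354 and 496 without CCA tumor 3, 4 or 5, and 680, 2485 and 843 without mixed tumor 2, 7 or 9. In all 6 of these fits 272 genes stayed called, 220 higher and 52 lower, and 2390 of the 2393 kept their direction. Scaling by total counts alone, without TMM, moved the median gene by 0.214 towards CCA on the log2 scale and gave 3128 higher and 276 lower calls, so falls in particular are relative to the TMM scale. Counts for gene lists with 1 tumor left out are given in the order CCA 3, 4, 5, mixed 2, 7, 9. Every list count with all 6 tumors stands beside 9.01% of all genes that rose and 4.45% that fell. The 2 groups did not overlap for 37.8% of 18318 genes, 20.2% higher and 17.6% lower in CCA, so non-overlap alone is no call.

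The genes with the smallest p that were higher in CCA included several for secreted and membrane proteins. Fstl1, a secreted follistatin-like glycoprotein (chr16:37776873-37836514, mm10, protein coding), stood at 181, 204 and 174 CPM in CCA tumors 3, 4 and 5, against 54, 89.1 and 88.3 CPM in mixed tumors 2, 7 and 9. This order of tumors is kept below. Fstl1 rose by 1.28 ± 0.19 on the log2 scale (SE, n = 3 against 3; adjusted p = 0.0154 with 6 tumors and 0.0525 with 12). Igfbp3, a carrier of insulin-like growth factors, stood at 128, 89.9 and 99.4 CPM against 46.3, 54.7 and 50.3 CPM. Both genes are listed targets of YAP, and in both every CCA tumor lay above every mixed tumor, as the rule that chose them required. Egr2, an immediate early zinc finger factor, stood at 7.76, 7.68 and 7.05 CPM against 1.49, 2.55 and 2.40 CPM, a log2 rise of 1.81 ± 0.22 (SE). Sfrp1, a secreted Wnt antagonist, stood at 7.17, 10.4 and 8.15 CPM against 1.13, 1.43 and 2.75 CPM, a log2 rise of 2.31 ± 0.33 (SE).

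Membrane trafficking genes stood beside them. Ehd2, which coats the necks of caveolae, had 65.2, 74.2 and 58.6 CPM in the CCA tumors and 22.7, 32.3 and 35.9 CPM in the mixed tumors. Rab11fip5, an effector of recycling endosomes, had 32.6, 32.6 and 30.1 CPM against 6.60, 13.4 and 10.5 CPM. Arl4c, a small GTPase, had 48.7, 49.8 and 44.7 CPM against 9.71, 17.5 and 20.5 CPM. The log2 rise was 1.65 ± 0.23 (SE) for Rab11fip5, 1.60 ± 0.24 for Arl4c and 1.13 ± 0.17 for Ehd2. The others named by the same rule were Glipr2 (log2 fold change 1.29), Sspn, a member of the dystrophin complex (1.31), and Lix1l (0.91). All 10 genes stayed called whichever tumor was left out. Wisp2, a matricellular protein of the CCN family, had an even larger rise of 2.82 ± 0.28 (SE, adjusted p = 0.0112 with 6 tumors and 0.0568 with 12), from 4.22, 9.80 and 6.54 CPM in the mixed tumors to 42.5, 53.6 and 49.0 CPM in the CCA tumors.

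Among the genes with the smallest p that were lower in CCA, several are typical of hepatocytes. Prkaa2, the alpha2 catalytic subunit of AMP-activated kinase (chr4:105029874-105109890), stood at 59.4, 52.0 and 50.4 CPM in the CCA tumors and at 101, 87.2 and 91.5 CPM in the mixed tumors, a log2 change of -0.78 ± 0.10 (SE, adjusted p = 0.0123 with 6 tumors and 0.0525 with 12). Inhbc, a liver activin subunit (chr10:127356328-127370544), stood at 39.3, 46.7 and 35.8 CPM against 76.3, 78.0 and 70.8 CPM, a log2 fold change of -0.88 ± 0.11. The ranges of the groups did not touch for either gene, as the rule that chose them required. Slc30a10, a manganese exporter, fell from 83.6, 72.8 and 67 CPM to 42.5, 41.3 and 34.1 CPM. Xylb, which phosphorylates xylulose, Pipox, a peroxisomal oxidase, and Sntb1, a syntrophin, had log2 fold changes of -0.61, -0.71 and -0.65. These 6 stayed called in every fit with a tumor left out.

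The other 4 genes of that set held their call less firmly. Hamp2, which encodes a hepcidin-like peptide, stood at 12.2, 8.55 and 7.98 CPM against 35.6, 27.5 and 18.3 CPM, and its call ended without mixed tumor 2 or CCA tumor 4 or 5 (adjusted p = 0.0516, 0.0605 and 0.0571). Krt4, a keratin of stratified epithelia, stood at 4.46, 2.96 and 3.35 CPM against 21.1, 19.3 and 7.28 CPM, with mixed tumor 9 far below the other mixed tumors. Its call ended without the same tumors (adjusted p = 0.0661, 0.0635 and 0.0587). Slc17a1, a phosphate transporter, lost its call without CCA tumor 4 or 5 (0.0545 and 0.0579), and Pgap1, which trims lipid anchors, without CCA tumor 4 (0.0510).

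**Figure D1:**
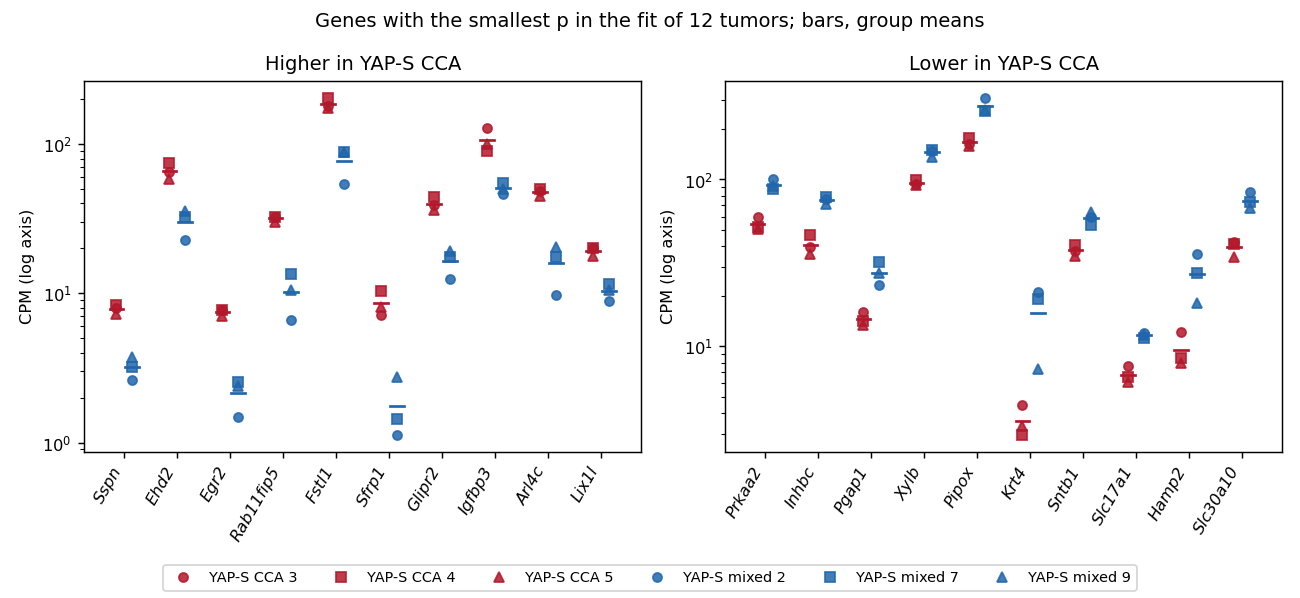
CPM on log axes of the 10 genes with the smallest p in each direction, for CCA tumors 3, 4 and 5 (red) and mixed tumors 2, 7 and 9 (blue), with bars at group means. The groups do not overlap for any of the 20 genes, a property required by the rule that chose them, and Krt4 spreads widest among the mixed tumors.

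Collagen chains were higher in CCA. Of 21 collagen chains measured, 13 rose in CCA and 0 fell, against 9.01% and 4.45% of all genes, and the median log2 fold change of the list was 1 against -0.01 over all genes. Leaving out a tumor turned the 13 into 11, 11, 10, 10, 13 and 10, and 9 were called in all of these fits. Col6a1, of the microfibrillar collagen VI (chr10:76708792-76726168), stood at 66.3, 85.4 and 64.6 CPM against 20.3, 27.0 and 31.5 CPM, a log2 rise of 1.46 ± 0.17 (SE, adjusted p = 0.0113 with 6 tumors and 0.0540 with 12). Col5a2, of the fibrillar collagen V, stood at 162, 140 and 140 CPM against 54.2, 72.4 and 75.2 CPM. Col15a1, of a basement membrane zone collagen, stood at 147, 112 and 125 CPM against 40.4, 62.0 and 52.1 CPM. For all 3 the lowest CCA tumor lay above the highest mixed tumor, as it did for 20.2% of all genes. Col1a1, the main fibrillar chain, rose from 57.2, 134 and 79.1 CPM to 363, 206 and 290 CPM (log2 fold change 1.68 ± 0.33), but its call ended without CCA tumor 3 or 5 or mixed tumor 2 or 9 (adjusted p = 0.0558, 0.0602, 0.0699 and 0.0749).

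The enzymes that process matrix rose with the chains. Of 26 collagen enzymes and matrix proteases, 12 rose and 0 fell, with a median log2 fold change of 0.91. With 1 tumor left out the count was 7, 6, 6, 8, 12 and 8, and 6 genes held throughout. Adamts2, which trims procollagen ends, had 47.3, 42.9 and 40.9 CPM in the CCA tumors and 18.2, 20.2 and 23.0 CPM in the mixed tumors (log2 fold change 1.10 ± 0.11). The crosslinking enzymes Lox and Loxl2 rose by 1.19 ± 0.25 and 1.25 ± 0.32. Lox lost its call without any 1 of the 3 CCA tumors or mixed tumor 2 or 9 (adjusted p from 0.0510 to 0.0686), and Loxl2 without any tumor other than mixed tumor 2 (0.0505 to 0.0975).

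Of 22 integrins and laminins, 10 rose (45.5%) and 1 fell (4.55%). The counts of rises with 1 tumor left out were 2, 1, 2, 4, 10 and 4. Lamb1, a laminin chain of basement membranes, held in every such fit, at 73.2, 76.2 and 65.7 CPM against 30.0, 36.9 and 41.8 CPM (log2 fold change 0.99 ± 0.13). Of 23 genes of the TGF-beta pathway, a driver of fibrosis, 10 rose and 2 fell (rises: 6, 1, 5, 6, 9 and 8). The receptor Tgfbr2 held throughout, at 76.8, 88.3 and 77.0 CPM against 49.1, 47.1 and 50.5 CPM. The ligand Tgfb3 and the feedback inhibitor Pmepa1 rose by 1.33 and 1.13 on the log2 scale, and each lost its call only without CCA tumor 4 (adjusted p = 0.0545 and 0.0522).

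Markers of fibroblasts and stellate cells, the matrix-producing cells of the liver, moved with these genes. Of 21 markers, 9 rose and 0 fell, all 21 had a positive fold change, and the median was 0.86. With 1 tumor left out the count was 4, 2, 3, 4, 8 and 7. Their summed level was 1610 to 1930 CPM in the CCA tumors and 757 to 1170 CPM in the mixed tumors. Pdgfrb, the PDGF receptor of stellate cells and pericytes, stood at 64.6, 60 and 58.7 CPM against 31.5, 36.3 and 33.7 CPM and was the 1 marker called in every fit with a tumor left out. Postn, a secreted matrix protein of fibroblasts, rose by 0.81 and lost its call without CCA tumor 4 (adjusted p = 0.0545). Vim, a filament of mesenchymal cells, rose by 1.33 and lost it without CCA tumor 3, 4 or 5 (0.0565, 0.0751 and 0.0587). In bulk tumors, more cells of a type and more RNA per cell cannot be told apart, and the part of stromal cells in the matrix rise was not tested. In cultured SB1 cells, 18 of the 21 collagen chains and 14 of the 21 fibroblast markers reached 1 CPM in all 3 samples. The same held for 69.3% of all tested genes, so the fibroblast count is near that share. Vim was among the markers found, at 1710 CPM, while Postn was at 0.751 CPM. Endothelial markers moved less, with 4 of 22 higher (Vwf, Cdh5, Cd34 and Plvap) and 0 lower (1, 1, 1, 1, 5 and 1 with a tumor left out) and Pecam1 at 56.1 to 70.4 CPM in the CCA tumors and 56.1 to 59.9 CPM in the mixed tumors. Vwf, the von Willebrand factor of vessels and platelets, was the exception, at 13.5, 17.6 and 15 CPM against 7.17, 7.11 and 8.22 CPM, and held in every fit.

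Listed target genes of YAP differed in part between the labels, while the engineered genes themselves did not. Yap1 and Akt1, the genes whose altered forms drove all of these tumors, were not called. Yap1 stood at 106, 108 and 90.9 CPM in the CCA tumors and at 99.8, 110 and 114 CPM in the mixed tumors. Akt1 stood at 744, 483 and 834 CPM against 384, 931 and 256 CPM, with wide overlap. Whether the counts include transcripts of the introduced forms is not given in the sources used here.

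Of 29 listed YAP-TEAD targets, 10 rose and 0 fell, 23 had a positive fold change, and the median was 0.45. With 1 tumor left out the 10 became 4, 3, 3, 4, 7 and 5, and Ankrd1, Fstl1 and Igfbp3 held throughout. Ankrd1, a muscle ankyrin repeat protein used as a readout of YAP, stood at 197, 127 and 136 CPM against 45, 70.1 and 68.6 CPM, a log2 rise of 1.33 ± 0.22 (SE, adjusted p = 0.0170 with 6 tumors and 0.0704 with 12). Rbms3, an RNA-binding protein, rose by 0.98 ± 0.23, a call that ended without any tumor other than mixed tumor 9 (adjusted p from 0.0656 to 0.0983). The 2 best known targets, Ctgf and Cyr61, were not called. Ctgf stood at 186, 176 and 133 CPM against 75.7, 137 and 136 CPM, so that CCA tumor 5 lay below mixed tumors 7 and 9. Cyr61 stood at 124, 93.4 and 84.2 CPM against 62.9, 68.9 and 86.8 CPM, and CCA tumor 5 lay below mixed tumor 9. Which cells of the bulk tumors supplied the transcripts of these targets was not tested.

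The promoter of Ankrd1 holds the letters of the TEAD site, while binding was not measured. The 250 bases before its start (RefSeq, GRCm38.p6, chr19:36119845-36120094, minus strand) hold the letters GGAATG at 210 and 123 bases before the start. Axl, a receptor tyrosine kinase among the 10 targets that rose (82.1, 128 and 105 CPM against 45.4, 64.0 and 47.9 CPM), holds 1 copy in chr7:25788734-25788983, minus strand, at 233 bases before the start. Axl was named after its values were seen, and its call ended without CCA tumor 4 or 5 or mixed tumor 2 or 9 (adjusted p from 0.0574 to 0.0771). Both windows are shown 5′ to 3′ with the motif in capitals.
Ankrd1: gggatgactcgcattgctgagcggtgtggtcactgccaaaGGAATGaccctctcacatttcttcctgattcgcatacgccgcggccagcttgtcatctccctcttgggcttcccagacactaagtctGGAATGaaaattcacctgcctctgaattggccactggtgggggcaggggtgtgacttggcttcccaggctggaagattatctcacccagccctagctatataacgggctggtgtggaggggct
Axl: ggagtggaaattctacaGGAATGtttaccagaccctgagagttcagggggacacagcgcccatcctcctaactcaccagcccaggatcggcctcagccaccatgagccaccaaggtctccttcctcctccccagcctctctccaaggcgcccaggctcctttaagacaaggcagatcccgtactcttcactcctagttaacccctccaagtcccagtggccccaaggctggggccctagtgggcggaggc
In windows from 250 bases before to 50 after the start, searched on both strands (GGAATG or CATTCC), 9 of the 21 measured targets with a window held the motif, against 16.6% of 27025 genes. Of the 9 that rose and have a window, 3 held it, namely Ankrd1, Axl and Ptpn14, whereas Fstl1 and Igfbp3 did not. The letters are not particular to genes that rose, since 9 of 9 windows of the major urinary proteins, a list in which 10 of 14 genes fell in CCA, held them too. These are near-identical gene copies that share their sequence.

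Of 24 Hippo components, 5 were higher (20.8%, against 9.01% of all genes) and 1 lower (4.17%, against 4.45%), with a median of 0.04. None was called in every fit with a tumor left out (rises: 0, 0, 0, 1, 3 and 2). Frmd6, an upstream activator of the kinases, and Tead2, a DNA-binding partner of YAP, rose by 0.82 and 0.93. Frmd6 lost its call without any tumor other than mixed tumor 9 (adjusted p from 0.0598 to 0.0904) and Tead2 without CCA tumor 3, 4 or 5 (0.0605, 0.0572 and 0.0699). Among Src family kinases, which act on the tyrosine that distinguishes the models, 4 of 14 rose and 0 fell (4, 2, 2, 3, 5 and 3). Fyn stood at 23.1, 25.3 and 21.9 CPM against 15.4, 16.4 and 15.8 CPM and lost its call only without CCA tumor 4 (adjusted p = 0.0536). Fgr, a kinase of myeloid cells that was near 0 in SB1 cells at 0.0908 CPM, stood at 13.7, 12.6 and 14 CPM against 6.26, 7.92 and 8.25 CPM and lost its call without CCA tumor 5 (0.0560). Lck and Src were the others that rose, and Src, singled out after its values were seen, held in every fit.

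Notch signalling directs bile duct formation, and 9 of 19 Notch pathway genes rose and 0 fell, with a median of 0.59. Leaving out a tumor turned the 9 into 3, 2, 2, 2, 12 and 4. The effectors Hes1 and Heyl held in all of these fits. Hes1 stood at 22.0, 22.3 and 21.2 CPM against 14.5, 13.3 and 14.2 CPM, a narrow spread in both groups (log2 fold change 0.64 ± 0.09), and Heyl at 29.4, 27.5 and 28.2 CPM against 11.9, 18.0 and 12.8 CPM (1 ± 0.16). The coactivator Maml2 rose by 0.84 and lost its call without CCA tumor 4 or 5 or mixed tumor 2 (adjusted p = 0.0684, 0.0646 and 0.0818).

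Of 26 genes of EGF and FGF receptor signalling, 8 rose and 1 fell (rises: 4, 3, 3, 4, 8 and 3). The receptor Fgfr1 stood at 33.7, 35.1 and 30.1 CPM against 17.4, 16.5 and 20.1 CPM, and the phosphatase Dusp4, a feedback inhibitor of ERK, at 6.61, 4.81 and 5.01 CPM against 1.78, 2.56 and 2.33 CPM. Both held in every fit. The ligand Hbegf rose by 1.34 ± 0.23 and lost its call without CCA tumor 4 (adjusted p = 0.0560). All 20 immediate early genes had a positive fold change, with 9 called and a median of 0.92. That count fell to 2, 2, 1, 2, 6 and 4 with a tumor left out, and 6 were called with DESeq2's size factors.

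**Figure D2:**
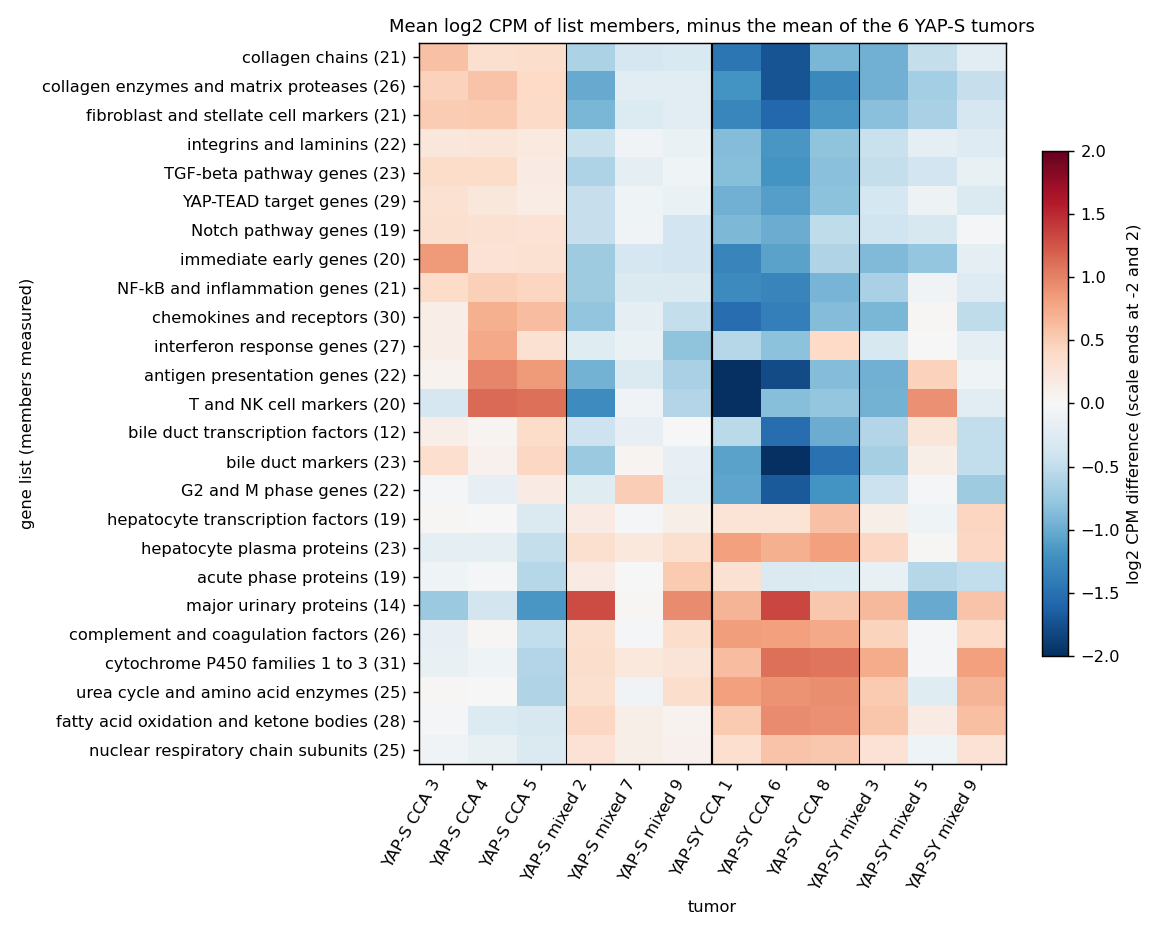
Mean log2 CPM of each gene list's members in the 12 tumors, as the difference from the mean of the 6 YAP-S tumors, with red above and blue below it and the number of members measured in parentheses. Matrix, fibroblast, YAP-TEAD and Notch lists are red in all 3 YAP-S CCA tumors, antigen presentation and T cell lists are reddest in CCA tumors 4 and 5, and the YAP-SY CCA tumors are blue for these lists.

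Inflammatory and antigen presentation genes were higher in CCA, the antigen presentation genes most of all in CCA tumors 4 and 5. Of 22 antigen presentation genes, 17 rose and 0 fell, all 22 had a positive fold change, and the median was 1.40. The count leaned on single tumors, at 18, 2, 5, 4, 17 and 5 with 1 left out. Tapbp, which loads peptides on class I molecules, stood at 132, 155 and 142 CPM against 67.4, 93.1 and 77.7 CPM and lost its call only without CCA tumor 4 (adjusted p = 0.0510). H2-D1, a class I heavy chain of a family of near-identical genes, stood at 659, 989 and 790 CPM against 361, 445 and 422 CPM (call lost without CCA tumor 4 or mixed tumor 2; 0.0510 and 0.0571). Psmb8, of the immunoproteasome, stood at 46.2, 96.5 and 72.0 CPM against 24.9, 32.5 and 26.1 CPM. Its call ended without CCA tumor 4 or 5 or mixed tumor 2 or 9 (0.0518 to 0.0764). Cd74, the class II invariant chain, named after its values were seen, reached 1220 and 957 CPM in CCA tumors 4 and 5 against 396 CPM in CCA tumor 3 and 179, 310 and 254 CPM in the mixed tumors. It lost its call without the same 4 tumors (0.0763 to 0.1100).

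T and NK cell markers followed the same order of tumors. Their summed level was 82.8 and 72.9 CPM in CCA tumors 4 and 5, 29.2 CPM in CCA tumor 3 and 13.3 to 33.2 CPM in the mixed tumors. All 20 markers had a positive fold change, with a median of 1.43, but only 3 were called, Cd4, Gzmb and Lck, with Cd4 at 3.69, 11.7 and 8.26 CPM against 1.17, 2.58 and 2.98 CPM. The count was 8, 0, 0, 0, 3 and 0 with a tumor left out, so leaving out CCA tumor 3 raised it, and Cd4 lost its call without any tumor other than CCA tumor 3 (adjusted p from 0.0738 to 0.1340). Macrophage markers differed less, with C1qa, C1qc and Cd68 higher of 20 (3 rises, and 4, 0, 0, 0, 4 and 0 with a tumor left out), the complement subunit C1qa at 89.4, 132 and 120 CPM against 46.3, 70.6 and 47.3 CPM (call lost without CCA tumor 4 or 5 or mixed tumor 2 or 9; 0.0618 to 0.0822). Red cell and platelet genes had 0 of 8 called (1 lower without CCA tumor 3), and 0 of their members had an unadjusted p under 0.05 with 12 tumors. Ptprc, the CD45 antigen of white blood cells, was not called, at 35.4, 66.1 and 63.4 CPM against 32.4, 40.9 and 33.3 CPM. The part of infiltrating cells in the rise of antigen presentation genes was not tested.

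Genes of inflammatory signalling were also higher in CCA. Of 22 NF-kB and inflammation genes, 13 rose and 0 fell (8, 1, 3, 6, 13 and 7), with a median of 0.81. Tnf, the cytokine, stood at 2.49, 3.74 and 3.35 CPM against 0.787, 0.667 and 0.939 CPM, a log2 rise of 2.02 ± 0.26 (SE, adjusted p = 0.0124 with 6 tumors and 0.0540 with 12) that held in every fit. Nfkbie, an inhibitor of NF-kB induced by it, rose by 1.27 and lost its call only without CCA tumor 4 (0.0518). Of 30 chemokines and receptors, 8 rose and 0 fell (11, 3, 3, 5, 9 and 5). The membrane-bound chemokines Cxcl16 and Cx3cl1 held in every fit. Cxcl16 stood at 78.8, 115 and 93.6 CPM against 31.3, 48.4 and 43.5 CPM, and Cx3cl1 at 19.5, 28.4 and 23.5 CPM against 9.06, 10.2 and 10.2 CPM. Both were also found in SB1 cells, at means of 109 and 48.5 CPM.

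Of 27 interferon response genes, 9 rose and 0 fell (10, 2, 4, 2, 7 and 2), and 26 had a positive fold change. Oasl2, an antiviral gene, stood at 38.9, 76.7 and 52.8 CPM against 18.0, 20.5 and 14.1 CPM and held in every fit. Gbp3, an interferon-induced GTPase, stood at 24.2, 55.4 and 39.5 CPM against 9.91, 14.7 and 11.2 CPM and lost its call without mixed tumor 2 or 9 (adjusted p = 0.0663 and 0.0531). Its promoter holds the letters of the element through which interferon acts, while binding was not measured. The 250 bases before the start (RefSeq, GRCm38.p6, chr3:142559794-142560043, plus strand) hold 2 overlapping copies of it on the other strand, read here as TTTC, any 2 bases and TTTC, at 45 and 39 bases before the start, in capitals.
Gbp3: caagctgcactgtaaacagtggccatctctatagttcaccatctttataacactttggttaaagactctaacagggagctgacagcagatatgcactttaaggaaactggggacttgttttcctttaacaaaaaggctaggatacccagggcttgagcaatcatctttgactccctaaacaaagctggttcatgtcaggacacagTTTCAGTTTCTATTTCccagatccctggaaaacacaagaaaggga
Of the 19 measured interferon genes with a window, 12 held GAAA, any 2 bases and GAAA on either strand, against 3.99% of all genes. Of the 7 that rose and have a window, 3 held it, so most genes with the element were not called.

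Few bile duct markers were called, although most were higher in CCA. Of 22 markers, 1 rose and 0 fell, 18 had a positive fold change, and the median was 0.36. The mean level of the 23 markers measured with the tumors of both models was 5.17, 4.93 and 5.25 log2 CPM in the CCA tumors. It was 4.10, 4.89 and 4.68 log2 CPM in the mixed tumors. By this measure the groups did not overlap, but CCA tumor 4 (4.93) and mixed tumor 7 (4.89) were close. The summed level of the same markers did overlap, at 10700, 9190 and 13000 CPM against 11600, 12100 and 11300 CPM. Most of that sum was Spp1. Krt19, the keratin used to stain bile ducts, was not called, at 56.7, 88.4 and 35.8 CPM in the CCA tumors and 4.72, 29.2 and 40.5 CPM in the mixed tumors. CCA tumor 5 lay below mixed tumor 9, and mixed tumor 2 was far below all others. Krt7 was not called either, at 18.5, 33.9 and 25.4 CPM against 2.73, 13.3 and 16.2 CPM, although its groups did not overlap. Spp1, osteopontin, stood at 7960, 7000 and 10500 CPM against 9850, 9980 and 9160 CPM, and Epcam at 14.3, 8.93 and 14.4 CPM against 9.93, 12.8 and 15 CPM. Ddr1, a collagen receptor kinase, was the marker that rose, at 124, 100 and 124 CPM against 50.8, 76.5 and 57.7 CPM, and it lost its call without CCA tumor 5 or mixed tumor 2 or 9 (adjusted p = 0.0582, 0.0655 and 0.0640). Cd24a, a surface glycoprotein of progenitors, was not called although its groups did not overlap, at 202, 256 and 165 CPM against 46.4, 89.6 and 143 CPM.

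Transcription factors of the bile duct gave 3 rises and 1 fall among 12 (rises: 1, 2, 1, 1, 3 and 3), namely Hes1, which held throughout, Foxj1 and Sox9. Sox9, the duct and progenitor factor, stood at 60.8, 48.8 and 60.9 CPM against 36.9, 40.3 and 37.7 CPM. Its log2 rise was 0.58 ± 0.11 (SE; adjusted p = 0.0238 with 6 tumors and 0.3770 with 12), and the call ended without CCA tumor 3 or 5 or mixed tumor 2 or 9 (0.0590 to 0.0809). Grhl2, an epithelial factor, fell to 0.515, 0.535 and 1.5 CPM from 4.68, 3.40 and 4.69 CPM, a call lost without CCA tumor 4 or mixed tumor 2 or 9 (0.0622, 0.0727 and 0.0601). Ehf, an epithelial ETS factor, was higher in each CCA tumor but not called, at 106, 148 and 98.5 CPM against 37.6, 44.8 and 85 CPM. Cilium genes gave 3 rises among 12 (2, 0, 0, 1, 2 and 2), Bbs1, Tmem231 and Ift57. Ift57, of the intraflagellar transport complex, stood at 21.6, 27.6 and 20.9 CPM against 8.78, 12.9 and 15.4 CPM. Its call ended without any tumor other than mixed tumor 9 (0.0510 to 0.0860).

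**Figure D3:**
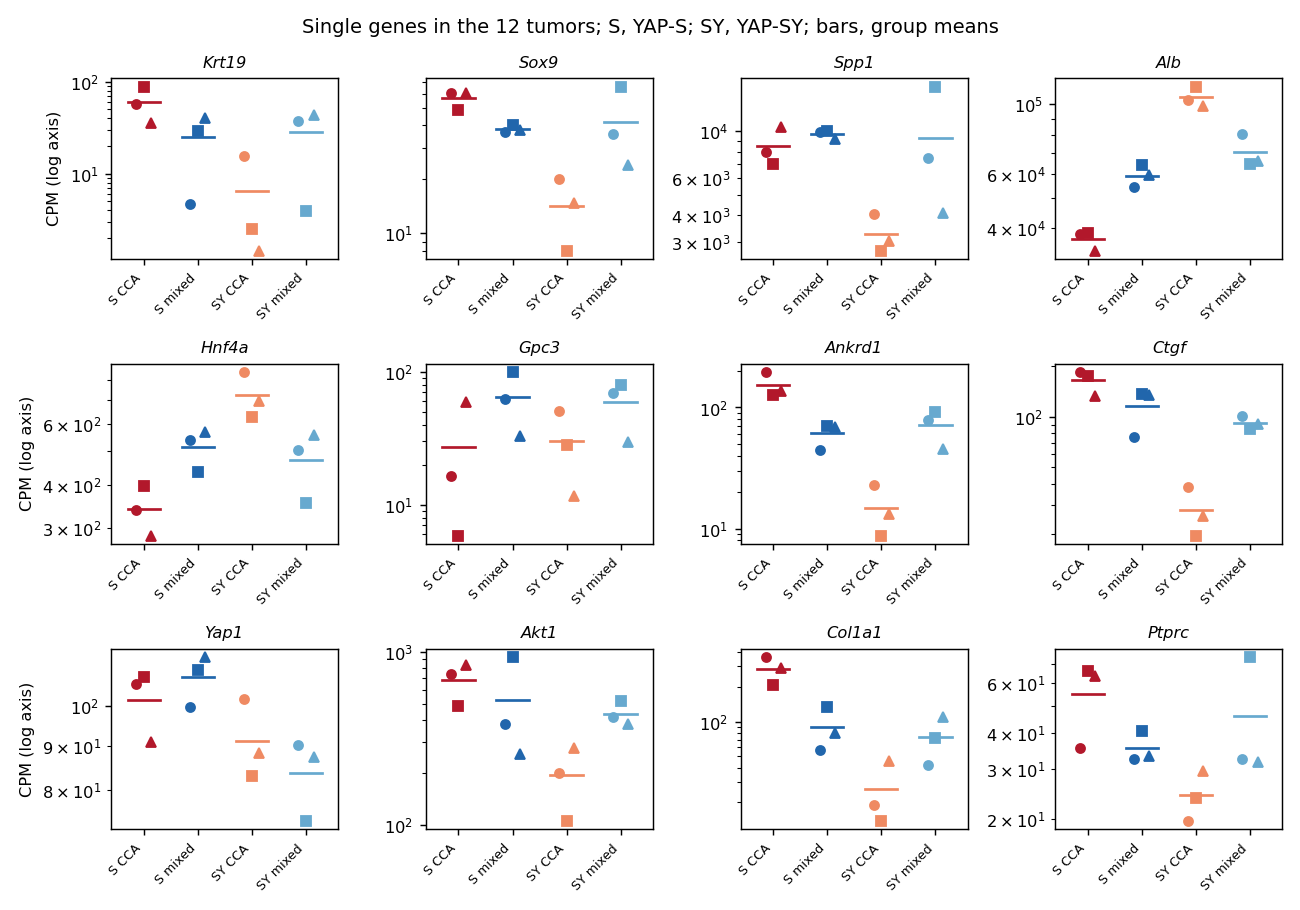
CPM on log axes of 12 single genes in the 12 tumors, with 1 symbol per tumor and bars at group means. In YAP-S the CCA and mixed tumors separate for Sox9, Alb, Hnf4a, Ankrd1 and Col1a1 and overlap for Krt19, Spp1, Gpc3, Ctgf, Yap1 and Akt1, and the YAP-SY CCA tumors lie lowest for Ankrd1 and Ctgf.

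Hepatocyte genes were mostly lower in CCA, by modest amounts. All 23 plasma protein genes had a negative fold change with TMM, with a median of -0.53, and 7 fell and 0 rose. That count was 1, 0, 1, 1, 6 and 3 with a tumor left out, so it fell by more than 1.5 times without any tumor other than mixed tumor 7. The summed level was 76500 to 91900 CPM in the CCA tumors and 130000 to 131000 CPM in the mixed tumors. Apob, the scaffold of liver lipoproteins, stood at 3940, 4290 and 3590 CPM against 7470, 6960 and 7670 CPM, a log2 change of -0.90 ± 0.16 (SE, adjusted p = 0.0199 with 6 tumors and 0.0578 with 12). Its call ended without CCA tumor 3, 4 or 5 (0.0560, 0.0640 and 0.0559). Serpina1c, an alpha-1 antitrypsin gene with close copies, had a log2 fold change of -0.69 and lost its call without any CCA tumor or mixed tumor 2 (0.0509 to 0.0836). Alb was not called, at 38300, 38800 and 33900 CPM against 54200, 63700 and 59300 CPM, and neither was Trf, transferrin, at 11900, 11300 and 10300 CPM against 19000, 18200 and 15900 CPM. The groups did not overlap for either, which held in that direction for 17.6% of all genes.

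Factors that maintain the hepatocyte state moved less, with 2 of 19 lower, 0 higher and a median of -0.18 that turned to 0.05 when scaled by total counts. Hnf4a, the central hepatocyte factor, stood at 338, 396 and 285 CPM against 539, 434 and 566 CPM. Its log2 fold change was -0.59 ± 0.16 (SE; adjusted p = 0.0462), and the call ended without any tumor other than mixed tumor 7 (0.0679 to 0.1330). Prox1, a factor of hepatocytes and lymphatic vessels, stood at 94.3, 86.6 and 60.9 CPM against 188, 139 and 131 CPM and lost its call without CCA tumor 4 or 5 or mixed tumor 2 (0.0706, 0.0645 and 0.0746).

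A minority of acute phase genes were called, 15.8% lower in CCA against 4.45% of all genes. Hamp, hepcidin, the hormone that limits iron uptake, stood at 252, 218 and 156 CPM against 520, 586 and 350 CPM (call lost without CCA tumor 4 or 5 or mixed tumor 2; adjusted p = 0.0655, 0.0579 and 0.0733). Crp stood at 256, 291 and 259 CPM against 471, 382 and 514 CPM (lost without any CCA tumor or mixed tumor 2; 0.0509 to 0.0577). With Apcs, serum amyloid P, they made up the 3 of 19 acute phase genes that fell, with 0 higher (3, 0, 0, 1, 4 and 2). Among 26 complement and coagulation factors, 3 fell (11.5%), C9, F9 and Cfi, and 0 rose (1, 2, 0, 0, 7 and 2). C9, of the membrane attack complex, stood at 486, 592 and 478 CPM against 982, 794 and 947 CPM (lost without CCA tumor 3 or 5 or mixed tumor 2; 0.0505, 0.0560 and 0.0514). F9, clotting factor IX, stood at 95.3, 105 and 84.0 CPM against 170, 136 and 169 CPM (lost without CCA tumor 5 or mixed tumor 2; 0.0521 and 0.0501).

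Major urinary proteins are pheromone carriers secreted by mouse hepatocytes, of which 10 of 14 fell, with a median of -1.31. They did not fall evenly, because mixed tumor 7 was close to the CCA tumors. Mup9 stood at 7.04, 8.08 and 5.29 CPM in the CCA tumors, 14.3 CPM in mixed tumor 7 and 71.1 and 54.3 CPM in mixed tumors 2 and 9. The count was 3, 1, 1, 1, 12 and 3 with a tumor left out, and Mup9 lost its call without any tumor other than mixed tumor 7 (adjusted p from 0.0566 to 0.0683). Reads of these near-identical copies may have been split between them, so single members are uncertain.

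Drug-metabolizing and intermediary metabolism followed the plasma proteins in direction. Of 31 cytochrome P450 genes of families 1 to 3, 8 fell and 0 rose, with a median of -0.51 (2, 3, 2, 2, 6 and 3). Cyp3a44 and Cyp3a41a, close copies of the female-predominant Cyp3a cluster, held in every fit. Cyp3a44 stood at 8.72, 7.89 and 5.43 CPM against 22.3, 27.0 and 21.4 CPM, and Cyp3a41a at 14.9, 15 and 11 CPM against 39.4, 33.7 and 31.9 CPM. Cyp2e1, of the pericentral zone, was not called, at 2730, 3320 and 1910 CPM against 3700, 2590 and 4420 CPM. Conjugation enzymes gave 5 falls, all of the Ugt2 family, and 1 rise among 26 (falls: 1, 0, 0, 2, 6 and 3). The rise was Gstm2, a glutathione transferase, at 131, 167 and 135 CPM against 77.5, 94.7 and 84.8 CPM, and it held in every fit. Ugt2b35, a glucuronosyltransferase with close copies, had a log2 fold change of -0.71 and lost its call without any CCA tumor (adjusted p = 0.0572, 0.0714 and 0.0699).

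Bile acid genes gave 4 falls (Baat, Slco1a4, Abcc2 and Abcg5) and 1 rise, the exporter Abcc4, among 20 (falls: 1, 0, 0, 0, 7 and 0). Baat, which conjugates bile acids, stood at 171, 193 and 141 CPM against 317, 222 and 287 CPM and lost its call without any tumor other than mixed tumor 7 (adjusted p from 0.0640 to 0.1020). Urea cycle and amino acid enzymes gave 3 falls, Kynu, Gldc and Tdo2, among 25 (2, 0, 1, 2, 8 and 2). Kynu, of tryptophan breakdown, stood at 113, 111 and 100 CPM against 208, 162 and 192 CPM and lost its call without CCA tumor 4 (0.05). Gldc, of glycine breakdown, had a log2 fold change of -0.55 and lost its call without CCA tumor 4 or 5 (0.0617 and 0.0679). Cps1, which opens the urea cycle, was not called, at 2210, 2540 and 1610 CPM against 3300, 2430 and 3620 CPM. Neither was Glul, glutamine synthetase, at 627, 800 and 415 CPM against 602, 442 and 843 CPM.

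Of 28 fatty acid oxidation and ketone body genes, 8 fell and 0 rose (1, 0, 0, 1, 8 and 1), and of 25 nuclear respiratory chain subunits 5 fell and 0 rose (2, 0, 0, 1, 7 and 1). Hadhb, of the mitochondrial trifunctional protein, had a log2 fold change of -0.57 (lost without any CCA tumor; adjusted p = 0.0517, 0.0654 and 0.0716). Ndufa4 stood at 176, 183 and 161 CPM against 314, 250 and 276 CPM (lost without CCA tumor 4 or 5; 0.0526 and 0.0542). In glucose metabolism 6 of 28 genes rose and 3 fell (rises: 3, 1, 2, 3, 7 and 2). Hk1, the hexokinase of most tissues other than hepatocytes, stood at 27.2, 32.3 and 27.0 CPM against 7.55, 13.5 and 11.6 CPM, a log2 rise of 1.41 ± 0.20 that held in every fit. Pfkp, the platelet phosphofructokinase, rose by 1.37 ± 0.27. Pfkp lost its call without any CCA tumor or mixed tumor 9 (0.0548 to 0.0659). Elovl6, a fatty acid elongase of the lipogenic program, had a log2 fold change of -0.63 (lost without CCA tumor 4 or mixed tumor 2 or 9; 0.0528, 0.0728 and 0.0509), with 3 falls (Elovl6, Acaca and Idi1) and 1 rise (Srebf2) among 34 lipogenic genes (falls: 5, 0, 1, 0, 3 and 1).

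Proliferation did not separate the labels at this depth and sample number. Of 22 genes of G2 and M phase, 0 were called with 6 tumors and 0 had an unadjusted p under 0.05 with 12. Mki67 stood at 99.8, 106 and 118 CPM against 92.4, 150 and 110 CPM. Of 23 S phase genes, 1 rose, Ccnd1, the cyclin that opens G1, at 339, 348 and 316 CPM against 104, 200 and 180 CPM. Its call ended without any CCA tumor or mixed tumor 9 (adjusted p from 0.0617 to 0.0738), and without mixed tumor 7 the list had 7 rises. Of 24 p53 targets and cycle inhibitors, 8 rose and 2 fell (rises: 4, 2, 3, 3, 9 and 3). The inhibitor Cdkn2b, at 4.23, 4.28 and 3.96 CPM against 0.969, 1.38 and 1 CPM, and the apoptosis factor Pmaip1, at 11.3, 11.5 and 11.2 CPM against 3.07, 5.49 and 4.43 CPM, held in every fit. Of 21 listed fetal liver and liver tumor genes, 2 rose (9.52%, near the 9.01% of all genes) and 0 fell. Of these 21 genes, 11 had a positive fold change. The rises were 1, 0, 0, 1, 4 and 1 with a tumor left out, and 2 genes fell without CCA tumor 5. Afp and Gpc3, from the fixed panel, were uneven within each label. Afp stood at 4.53, 1.79 and 25.3 CPM against 17.6, 27.7 and 2.40 CPM, and Gpc3 at 16.5, 5.83 and 58.8 CPM against 62.6, 99.7 and 32.7 CPM, and neither was called.

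In the YAP-SY model the same labels differed in the opposite direction for most of these genes. That comparison uses other tumors, and across the 18318 genes tested its log2 fold changes correlated with those of YAP-S by r = -0.395, a description over genes that are not independent. The sign agreed for 29.5% of genes. The 1600 genes higher in YAP-S CCA that were tested in both had a median log2 fold change of -0.70 in YAP-SY, and 109 of them kept the sign. For the 791 genes lower in YAP-S CCA the median in YAP-SY was 0.30. Within YAP-SY, 532 genes (2.90%) were called, 38 higher and 494 lower in CCA, and the count was 109 without YAP-SY CCA tumor 1, 319 without CCA tumor 8, 113 without mixed tumor 5 and 0 without CCA tumor 6, where the smallest adjusted p was 0.0604.

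The difference of the CCA effect between the models was tested directly in the fit of 12 tumors, and 2788 of 18318 genes (15.2%) passed. The effect in YAP-SY was below that in YAP-S for 1868 genes (10.2%) and above it for 920 (5.02%). With 1 tumor left out the count ranged from 1058, without YAP-S mixed tumor 2, to 3077. It fell by more than 1.5 times without YAP-S CCA tumor 4 or 5 (1744 and 1323), mixed tumor 9 (1564) or YAP-SY mixed tumor 5 (1749). Scaled by total counts it was 4330, of which 150 were above, so the split depends on the scaling. The test contains the YAP-S tumors and is no independent support for the falls and rises given before.

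The effect in YAP-SY was lower for 18 of 22 antigen presentation genes, 15 of 21 collagen chains, 16 of 26 collagen enzymes and proteases, 13 of 29 YAP-TEAD targets and 11 of 21 fibroblast markers. It was higher for 15 of 26 complement and coagulation factors, 12 of 28 fatty acid oxidation genes, 11 of 23 plasma proteins and 11 of 14 major urinary proteins. Ankrd1 shows the turn in single tumors. Under YAP-SY its CPM read 22.8, 8.72 and 13.3 for the CCA label (tumors 1, 6 and 8) but 78.4, 91.6 and 45.4 for the mixed label (tumors 3, 5 and 9). The log2 fold change was thus -2.26 ± 0.35, where YAP-S had 1.33. Fstl1 stood at 32.7, 29.1 and 37.1 CPM in the YAP-SY CCA tumors and at 75.8, 81.3 and 104 CPM in the mixed ones. Ctgf, not called in YAP-S, had 38.0, 19.5 and 25.6 CPM against 101, 84.6 and 90.3 CPM in YAP-SY, with an adjusted p of the difference of 0.00443.

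The mixed tumors of the models were closer than the CCA tumors for these genes. For the 1600 genes higher in YAP-S CCA, the median level was 4.02 to 4.15 log2 CPM in YAP-S CCA, 2.94 to 3.35 in YAP-S mixed, 2.90 to 3.42 in YAP-SY mixed and 2.10 to 2.78 in YAP-SY CCA tumors, so the YAP-SY CCA tumors lay below both mixed groups. This ranking describes genes chosen on the YAP-S tumors. Some lists had a median above 0 in both models, among them glycolysis (0.11 in YAP-S and 0.14 in YAP-SY), hypoxia response (0.14 and 0.07), B and plasma cells (0.44 and 0.16) and endothelial markers (0.19 and 0.01). Interferon response genes were another, with a median log2 fold change of 0.74 in YAP-S and 0.10 in YAP-SY, although 5 of 27 had a called difference below 0. Mean levels of list members did not all share this sign in YAP-SY. Interferon members averaged 4.51, 4.26 and 5.47 log2 CPM in YAP-SY CCA tumors 1, 6 and 8. In YAP-SY mixed tumors 3, 5 and 9 they averaged 4.76, 5.08 and 4.89 log2 CPM. Hypoxia members averaged 4.7 log2 CPM in YAP-SY CCA and 4.82 in YAP-SY mixed tumors. Gstm2 and Cyp3a44 had log2 fold changes of 0.00 and -0.09 in YAP-SY.

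**Figure D4:**
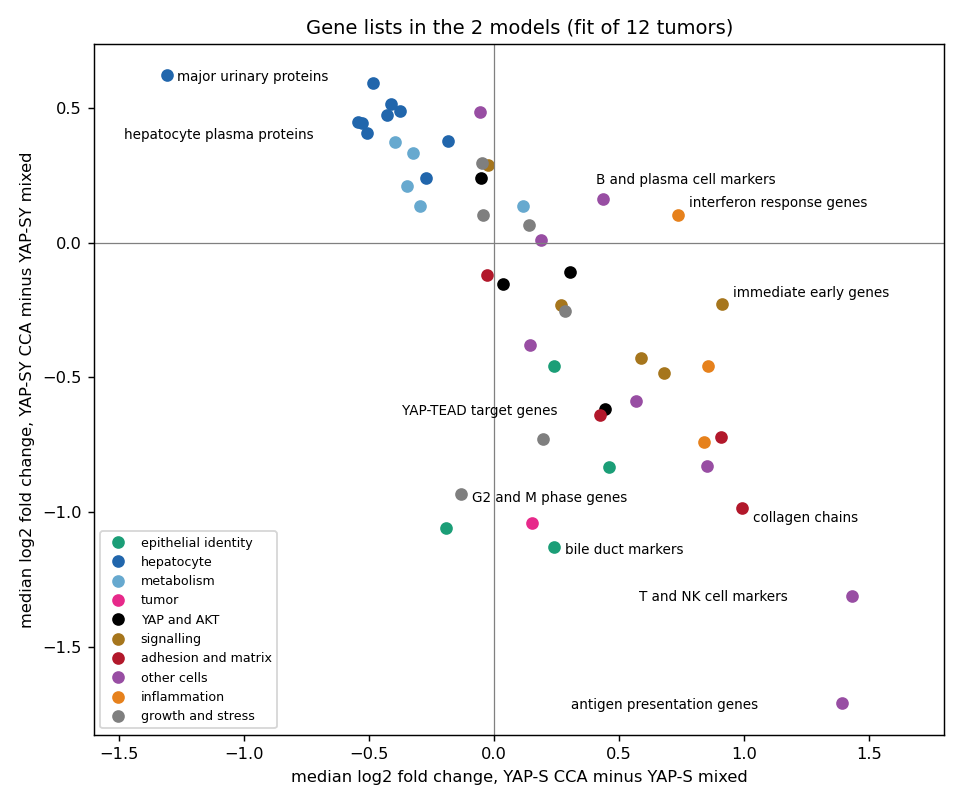
Median log2 fold change of CCA against mixed tumors for each gene list, in YAP-S (horizontal) and YAP-SY (vertical), from the fit of 12 tumors, with colors by the role of the list. Most lists lie at the lower right or upper left, such as collagen chains (0.99 and -0.98) and major urinary proteins (-1.31 and 0.62), and a few, such as interferon response genes (0.74 and 0.10), lie above 0 on both axes.

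Most tested genes were found in cultured SB1 cells, and the shares among called genes were not far above that of all genes. Of the 18318 genes tested in tumors, 69.3% reached 1 CPM in all 3 SB1 samples, as did 77.1% of the genes that rose and 72.8% of those that fell. Fstl1, Ehd2, Arl4c and Ankrd1 were found there at means of 327, 214, 135 and 327 CPM. Sfrp1, Egr2, Igfbp3 and Tnf were at 0.0384, 0.193, 0.479 and 0.255 CPM, although all 4 rose in the fit of 6 tumors and in each of its fits with a tumor left out. The SB1 table was deposited and scaled separately, so these levels are set beside the tumors without a test.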

How the data were processed

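Tumor RNA was sequenced as poly(A)-selected libraries, and the authors deposited counts per gene. STAR and mm10 are named in the submitters' processing notes, without versions, and the counting program is not given in the sources used here. The deposited table is labelled as corrected gene counts, and what was corrected is not given in the sources used here. Its whole-number values for 43346 genes were tested as counts, so each test assumes that they behave as such, after 27 symbols that had been turned into dates were restored. Columns were matched to samples by label, and 3 columns that match no sample label were not used. Counts of 2 were rarer than counts of 3 in 11 of 12 tumor libraries, and nothing was done about this.

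Genes were filtered by expression (18318 kept with 12 tumors, 17782 with 6), scaled by TMM and tested with edgeR 4.0.16 (quasi-likelihood, R 4.3.3, limma 3.58.1) with Benjamini-Hochberg adjustment at 0.05. The fit of 12 tumors was the main design and the fit of 6 the second. DESeq2 1.42.0, other scalings, other filters and leaving out a tumor were alternatives. For the YAP-S comparison with 12 tumors, only fits without a YAP-S tumor or YAP-SY CCA tumor 1 or 6 are given. The code was tested on simulated data. Fold changes are CCA against mixed, and SE is the log2 fold change divided by the root of F. Genes were named as the 10 smallest p in each direction with at least 5 CPM and no overlap, since 0 passed with 12 tumors, the 3 smallest p of a list, a fixed panel, and the largest differences between models. Members and lists were chosen with earlier results of these data known, so list counts are descriptions. Values of some single genes are not reported here.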

Additional observations from a re-analysis of the deposited data

Results flagged for a closer look

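The effect of the CCA label differed between the models for 2788 genes, by the interaction term of the fit of 12 tumors (edgeR quasi-likelihood test, Benjamini-Hochberg adjustment). Of the 113 genes named for the tumors, 94 were among them, with adjusted p from 0.00227 to 0.0465. Over all 18318 tested genes the share was 15.2%. Values are log2 differences, the effect in YAP-SY minus that in YAP-S, so a negative value means that the CCA tumors stood relatively higher in YAP-S. Most of these genes were chosen for their YAP-S values, which enter the difference, so the count of 94 is no independent support. Among the genes with the smallest p that were higher in YAP-S CCA, the difference was Sspn -1.47, Ehd2 -2.39, Egr2 -3.12, Rab11fip5 -3.10, Fstl1 -2.67, Sfrp1 -3.78, Glipr2 -2.41, Igfbp3 -1.69, Arl4c -3.03 and Lix1l -1.29. Among those that were lower in YAP-S CCA, the difference was Prkaa2 1.2, Inhbc 1.18, Pgap1 1.21, Xylb 0.91, Pipox 1.08, Krt4 2.65, Sntb1 0.90, Slc17a1 1.43, Hamp2 1.46 and Slc30a10 1.34. For genes named for their difference, the difference was Wisp2 -5.48, Sncg -5.34, Mup16 3.45, Mup18 3.77 and Moxd1 11.65. In the panel of single genes, the difference was Sox9 -2.12, Alb 1.26, Hnf4a 1.21, Cps1 1.34, Ctgf -2.24, Cyr61 -1.26, Ankrd1 -3.58, Col1a1 -3.17 and Ptprc -1.55. Among matrix and stromal genes, the difference was Col5a2 -2.39, Col6a1 -1.80, Col15a1 -2.51, Adamts2 -1.78, Lox -2.97, Loxl2 -2.82, Lamb1 -1.53, Lama4 -1.44, Pdgfrb -1.48, Vim -2.52, Postn -2.03, Tgfbr2 -1.03, Pmepa1 -2.13, Tgfb3 -3.51 and Vwf -1.95.

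Among signalling genes, the difference was Rbms3 -1.14, Frmd6 -1.62, Tead2 -2.21, Fgr -1.95, Hes1 -1.05, Heyl -1.91, Maml2 -1.18, Fgfr1 -1.09 and Hbegf -2.74. Among inflammatory genes, the difference was Tapbp -1.28, Psmb8 -1.96, H2-D1 -1.40, Cd74 -3.68, Tnf -4.25, Nfkbie -2.52, Cxcl16 -2.25, Cx3cl1 -2.20, Oasl2 -2.02, Gbp3 -2.27 and C1qa -1.81. Among epithelial genes, the difference was Ehf -2.25, Cd24a -2.67, Ddr1 -2.77 and Ift57 -2.66. Among hepatocyte and metabolic genes, the difference was Prox1 1.31, Apob 1.39, Trf 0.89, Serpina1c 1.13, Hamp 1.52, Crp 1.2, Mup9 3.34, C9 1.21, F9 1.21, Ugt2b35 1.26, Baat 1.32, Kynu 1.23, Gldc 0.87, Hadhb 1.03, Elovl6 0.98, Hk1 -1.97, Pfkp -2.57 and Ndufa4 0.95. Among growth genes, the difference was Ccnd1 -2.10, Cdkn2b -2.80 and Pmaip1 -2.22. Moxd1, a monooxygenase-like protein, rests on few tumors, at 15.8, 0.182 and 50.3 CPM for YAP-S mixed tumors 2, 7 and 9, while YAP-SY CCA tumors 1, 6 and 8 had 82.9, 26.4 and 1 CPM.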

How the results depend on the processing

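No paired analysis was possible because the YAP-S CCA tumors (3, 4 and 5) and mixed tumors (2, 7 and 9) share no replicate number. The count of 0 genes with 12 tumors became 117 with DESeq2's size factors, 711 scaled by total counts, 137 with upper quartile factors, 1513 with DESeq2's Wald test, 3609 with limma-voom and sample weights, 570 without a count filter, 269 with at least 1 CPM in at least 3 tumors and 2393 with the 6 tumors alone. It was 650 without the YAP-SY CCA group, chosen after seeing the data. With a YAP-S tumor or YAP-SY CCA tumor 1 or 6 left out it was 0 to 670. Fits without the other YAP-SY tumors are not given for this count. The 2393 genes of the 6 tumors became 4033 with the Wald test and 3404 scaled by total counts (91.9% higher, against 66.9%), and 354 to 2485 with 1 tumor left out. The 2788 differences between models became 4330 scaled by total counts and 4231 with the Wald test, and 1058 to 3077 with 1 tumor left out. The 532 genes of YAP-SY became 2006, 1834 and, without a filter, 859, and 0 to 595 with 1 YAP-SY tumor left out. The cause was not tested.

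Genes near 0 changed sign. With 12 tumors, total counts gave log2 fold changes of 0.0483 for Spp1, 0.222 for Epcam, 0.18 for Glul, 0.126 for Yap1 and 0.087 for Mki67. Epcam was 0.0177 with limma-voom, 0.00113 with the 6 tumors alone, 0.00673 without the YAP-SY CCA group, and 0.187, 0.00611 and 0.158 without CCA tumor 4 or mixed tumor 7 or 9. Without CCA tumor 5 or mixed tumor 9 Glul was 0.195 and 0.251, without mixed tumor 7 Afp was 0.0488 and Mki67 0.0856, and without CCA tumor 3 Pecam1 was -0.0158. With 6 tumors, total counts gave 0.0483 for Spp1, 0.18 for Glul, 0.126 for Yap1 and 0.0866 for Mki67. Epcam was -0.0159 with DESeq2's size factors, -0.0161 with the Wald test, and -0.134, -0.106 and -0.118 without mixed tumor 2 or CCA tumor 3 or 5. Glul was 0.176 and 0.246, Afp 0.0861, Mki67 0.112 and Pecam1 -0.0281 without the same tumors as before. With 1 tumor left out the log2 fold changes ran, with 12 tumors and with 6, from -0.154 to 0.187 and -0.134 to 0.204 for Epcam, -0.27 to 0.251 and -0.257 to 0.246 for Glul, -2.31 to 0.0488 and -2.34 to 0.0861 for Afp, -0.0158 to 0.152 and -0.0281 to 0.156 for Pecam1, and -0.278 to 0.0856 and -0.261 to 0.112 for Mki67.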
